A study of Mus musculus with 6 samples.

Results

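The VEGF and angiopoietin genes examined here are 10 genes chosen by name from the 21887 protein-coding genes of the mouse annotation. The 5 ligand genes are Vegfa, Vegfc, Vegfd, Angpt1 and Angpt2, and the 5 receptor genes are Kdr, Flt1, Flt4, Tek and Tie1. Acetylation of histone H3 at lysine 27 (H3K27ac), which marks active promoters and enhancers, was mapped by CUT&RUN, in which an antibody guides a nuclease to cut out marked chromatin. The cells came from dissociated, pooled lungs of mouse embryos at E16.5, an age in days, and belong to a study of the transcription factor MYRF in the mesothelium. Both sorts took living cells with podoplanin (PDPN+) and without CD45 or CD31. Mesothelial cells, the outer layer of the lung, were EPCAM-, and epithelial cells, the lining of the airways and future alveoli, were EPCAM+. Both groups came from the same kind of matings, between mice with floxed Myrf alleles (Myrf Fl/Fl), with no Cre named, and the cells are described as wildtype. The mesothelium libraries used 25k (replicate 1) and 100k (replicate 2) cells and the epithelium libraries 100k (replicate 1) and 200k (replicate 2). The CD31 and CD45 gates remove endothelial and blood cells. Another 2 libraries made with a control IgG were not analysed here.

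The authors' peak lists held 39010 and 41532 peaks in mesothelium replicates 1 and 2, against 47873 and 46633 in epithelium replicates 1 and 2. A peak lay in the domains of 51.0% and 54.5% of coding genes in mesothelium, against 54.5% and 54.4% in epithelium. A gene's domain was its body plus up to 50 kb on each side, cut midway to the next coding gene, and its value in a library was the length in kb that peaks covered. Lengths were compared by limma across 10481 domains, and a domain was called at an adjusted p under 0.05. The sort labels were checked against markers. In the mesothelial list of 10 genes, 5 of 9 tested domains were called longer in mesothelium, led by Gpm6a, Wt1, Bnc1 and Aldh1a2. The summed length was 45.0 and 93.5 kb in mesothelium, against 14.4 and 20.1 kb in epithelium. Msln and Krt19 of this list were longer on average in epithelium, without a call (limma, adjusted p = 0.438 and 0.895). Msln had 0.544 and 0.893 kb in mesothelium, against 1.185 and 4.285 kb in epithelium. In the epithelial list of 12 genes, 8 of 10 tested domains were called longer in epithelium, led by Cldn18, Nkx2-1, Foxa2 and Etv5, and the summed length was 26.9 and 4.37 kb in mesothelium, against 166 and 178 kb in epithelium. The first mesothelium library thus held more of the epithelial list than the second. Sequencing depth is not known from peak lists. The sources do not say whether replicates came from separate litters, so a p-value covers only variation among these libraries, which may be technical. The limma fit partly shares that variation across domains of similar mean length. A standard error (SE) is therefore not the spread of 1 domain alone.

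Vascular endothelial growth factors (VEGFs) are secreted ligands that bind receptor tyrosine kinases on endothelial cells and drive vessel growth. VEGF-A acts through KDR and FLT1 on blood vessels, and VEGF-C and VEGF-D act mainly through FLT4 on lymphatic vessels. Angiopoietins bind the receptor TEK, also called TIE2, and regulate vessel stability together with the related receptor TIE1. In the developing lung the epithelium is known as a main source of VEGF-A, and the receptors are known chiefly from endothelium.

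Of the 10 genes, 8 had an entry in the RefSeq promoter table of build GRCm38.p6, the assembly that mm10 names. Peaks within 1 kb of a start site lay at 4 of these 8 genes, in 1 library each. Vegfa had one in epithelium replicate 2 alone, and Vegfc, Flt4 and Tek had one in mesothelium replicate 2 alone. Kdr, Flt1, Tie1 and Vegfd had none in any library. Over 17492 coding genes with such a start site, a peak lay there for 24.6% and 32.9% in mesothelium replicates 1 and 2, against 25.1% and 25.5% in epithelium replicates 1 and 2. No start site of these genes thus had a peak in both libraries of a group. The matching share over all genes is not given, so this count is a description. The 250 bases upstream of the start are shown for the 4 genes with a start-site peak and for Kdr, which had mesothelial peaks elsewhere in its domain. They are written 5′ to 3′ on the gene's strand, and capitals mark matches to GGGCGG (GC box) or GGAAGT (ETS core) on either strand. The windows are chr17:46032378-46032627 (minus strand) for Vegfa, chr8:54077282-54077531 (plus strand) for Vegfc, chr5:75978456-75978705 (minus strand) for Kdr, chr11:49609429-49609678 (plus strand) for Flt4 and chr4:94739039-94739288 (plus strand) for Tek.
Vegfa: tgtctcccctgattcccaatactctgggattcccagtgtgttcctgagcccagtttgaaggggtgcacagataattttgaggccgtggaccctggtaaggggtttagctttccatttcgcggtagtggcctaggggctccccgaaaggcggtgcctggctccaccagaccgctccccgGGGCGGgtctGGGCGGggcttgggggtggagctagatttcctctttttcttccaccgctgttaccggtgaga
Vegfc: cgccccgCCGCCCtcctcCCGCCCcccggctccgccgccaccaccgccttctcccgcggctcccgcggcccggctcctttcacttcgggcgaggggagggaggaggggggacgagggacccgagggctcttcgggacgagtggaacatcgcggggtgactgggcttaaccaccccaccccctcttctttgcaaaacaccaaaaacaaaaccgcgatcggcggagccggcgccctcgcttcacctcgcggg
Kdr: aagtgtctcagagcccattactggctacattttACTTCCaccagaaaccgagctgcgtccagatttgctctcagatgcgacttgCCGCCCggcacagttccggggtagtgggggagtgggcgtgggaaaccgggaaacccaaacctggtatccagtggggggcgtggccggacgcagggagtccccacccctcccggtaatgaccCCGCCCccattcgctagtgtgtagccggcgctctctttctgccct
Flt4: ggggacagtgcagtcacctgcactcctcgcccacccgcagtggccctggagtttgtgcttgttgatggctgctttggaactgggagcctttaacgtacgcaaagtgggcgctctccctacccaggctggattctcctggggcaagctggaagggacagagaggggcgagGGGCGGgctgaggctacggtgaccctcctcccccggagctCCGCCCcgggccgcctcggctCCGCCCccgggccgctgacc
Tek: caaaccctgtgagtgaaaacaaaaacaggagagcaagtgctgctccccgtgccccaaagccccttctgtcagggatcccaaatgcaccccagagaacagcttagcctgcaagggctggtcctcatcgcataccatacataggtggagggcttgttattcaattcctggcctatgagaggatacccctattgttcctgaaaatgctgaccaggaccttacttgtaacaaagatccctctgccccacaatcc

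The GC box GGGCGG stood in 5 of the 8 windows, those of Vegfa, Vegfc, Kdr, Flt1 and Flt4, and in 32.7% of all 32851 windows of the same length. The ETS core GGAAGT, an element bound by factors such as ERG and FLI1, stood in 4, those of Vegfd, Kdr, Flt1 and Tie1, against 19.7% of all windows. GATAAG, a motif for factors of the GATA family, stood in the Vegfd window alone, against 6.55% of all windows. None of the 8 windows held ACGTG, a form of the hypoxia response core (16.6% of all windows), TGANTCA (AP-1, 6.75%), TGTTTAC (forkhead, 3.17%) or GGAATG (TEAD, 12.6%). The MYRF motifs CTGGCAC and CTGGTAC were also not among these letters, against 4.19% and 1.83% of all windows. GCGTG, another form of the hypoxia response core, was not searched, and it stands in the Kdr window printed above. Both strands were searched and no matches overlapped. The Tek window held none of the motifs searched. The start-site peaks of Vegfa (576 bp), Vegfc (1585 bp) and Flt4 (614 bp) covered their whole windows, while the Tek peak of 382 bp ended upstream of the window shown, at -0.696 kb from the start.

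**Figure D1:**
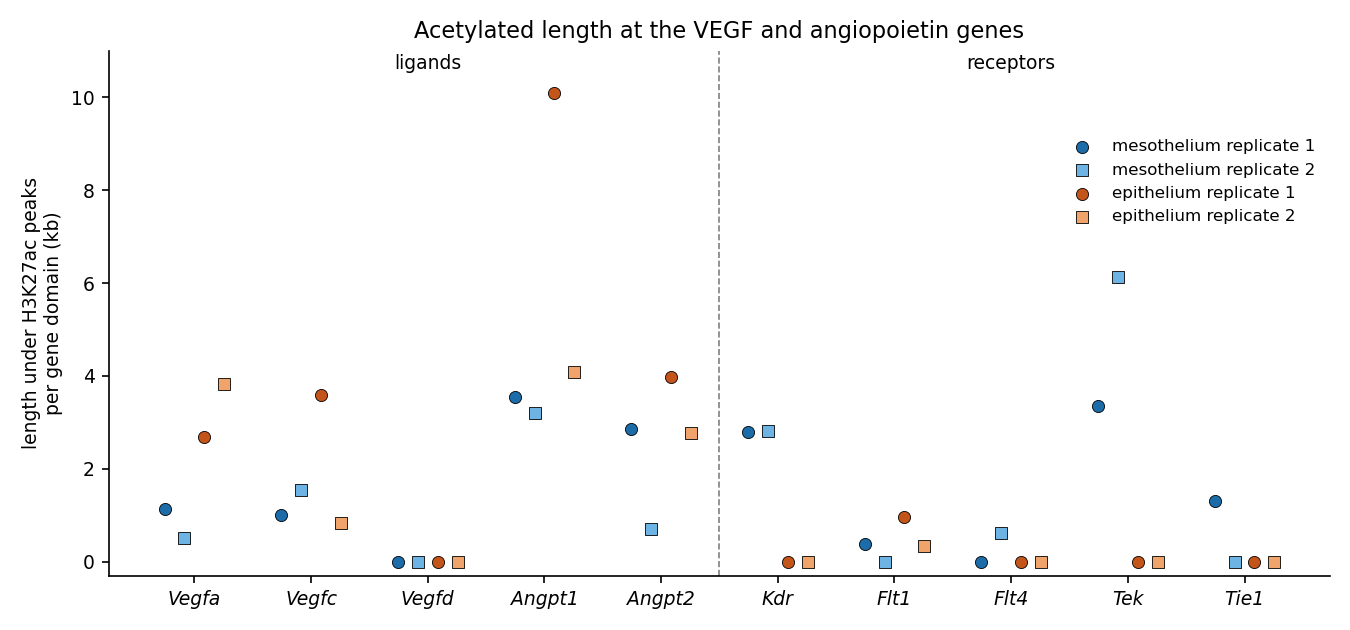
Length under H3K27ac peaks (kb, vertical axis) in the domains of the 5 ligand and 5 receptor genes (horizontal axis), with 1 point for each of the 2 mesothelium and 2 epithelium libraries. Tek and Kdr lie above 0 in both mesothelium libraries and at 0 in both epithelium libraries, and Angpt1 reaches 10.1 kb in epithelium replicate 1.

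Among the ligands, no domain was called different between mesothelium and epithelium. Vegfa, the main angiogenic VEGF, had less acetylated length in mesothelium, but its difference did not pass the adjusted test. Over all tested domains 1.41% were called longer in mesothelium and 2.53% longer in epithelium, 1862 had an unadjusted p under 0.05, and the median difference was 0.03 on the log2 scale. The median over the 4 tested ligand domains was -0.83, with 0 called by limma and 1, Vegfa, at an unadjusted p under 0.05. Vegfd, the second FLT4 ligand (chrX:164373522-164402650), had no peak in any library and was not tested. Both libraries of epithelium exceeded both of mesothelium for Vegfa and Angpt1, 2 of the 4 tested ligand domains, against 25.5% of all tested domains.

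The Vegfa domain, around the gene at chr17:46016993-46032377, had 1.13 and 0.514 kb under peaks in mesothelium replicates 1 and 2, against 2.69 and 3.84 kb in epithelium replicates 1 and 2. The groups did not overlap, and the longest values were epithelial. The log2 difference in kb + 0.5, mesothelium minus epithelium, was -1.47 ± 0.70 (SE, n = 2 libraries each, limma, adjusted p = 0.275, unadjusted p = 0.0472). The 3 mesothelial peaks lay outside the gene and were 512 to 617 bp wide, and the 7 epithelial peaks were 319 to 2061 bp wide and included 2 within the gene and 1 over its start, whose promoter sequence is given above. A single region was held by more than 1 library. It lay 60.2 kb downstream of the start (chr17:45971142-45973227), with 512 bp in mesothelium replicate 1, no peak in mesothelium replicate 2, and 2044 and 2061 bp in epithelium replicates 1 and 2. The epithelial libraries shared 2.02 kb of covered bases in this domain and the mesothelial libraries shared 0 kb.

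Vegfc, the principal lymphatic VEGF (chr8:54077532-54186454), had 0.996 and 1.54 kb in mesothelium, against 3.59 and 0.824 kb in epithelium. The groups overlapped, since the highest and the lowest values were both epithelial. The log2 difference was -0.35 ± 0.74 (SE, limma, adjusted p = 0.860). It became 0.38 without epithelium replicate 1 (adjusted p = 0.917), the library with the longest value. Each of the 14 regions in this domain was present in 1 library, including the 1585 bp peak over the start in mesothelium replicate 2. The strongest by the authors' −log10 q, 4.04, was a 642 bp peak within the gene in mesothelium replicate 1. The body of Vegfc overlaps the coding gene Gm33153, so peaks there cannot be assigned to 1 gene.

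Angpt1, the activating ligand of TEK (chr15:42424667-42676977), had 3.54 and 3.20 kb in mesothelium, against 10.1 and 4.08 kb in epithelium. All 4 libraries had peaks here, and epithelium replicate 1 stood far above the rest. The log2 difference was -0.79 ± 0.56 (SE, limma, adjusted p = 0.494). It was -0.27 without epithelium replicate 1 and -1.39 without epithelium replicate 2 (limma, adjusted p = 0.924 and 0.388). Of the 26 regions, 21 were present in 1 library, 5 in libraries of both groups, and none in both libraries of 1 group only. The region in most libraries, within the gene at chr15:42585678-42587165, had 682 bp in mesothelium replicate 1 and none in mesothelium replicate 2, against 1488 and 781 bp in epithelium replicates 1 and 2. The mesothelial libraries shared 0 kb of covered bases in the domain, and the epithelial libraries shared 0.781 kb.

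Angpt2, which opposes or mimics ANGPT1 at TEK depending on context (chr8:18690263-18741562), had 2.86 and 0.705 kb in mesothelium, against 3.97 and 2.78 kb in epithelium. Mesothelium replicate 1 lay between the epithelium libraries, and mesothelium replicate 2 was the lowest. The log2 difference was -0.87 ± 0.69 (SE, limma, adjusted p = 0.549). It was -1.66 without mesothelium replicate 1 and -0.03 without mesothelium replicate 2 (limma, adjusted p = 0.272 and 0.990). Angpt2 lies inside the coding gene Mcph1, so its domain had no flanks and these peaks cannot be assigned to 1 of these genes. The region in most libraries (chr8:18690632-18696193) joined peaks of 2359 bp in mesothelium replicate 1, 3382 bp in epithelium replicate 1 and 1795 bp in epithelium replicate 2. The epithelial peaks in it did not overlap each other.

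**Figure D2:**
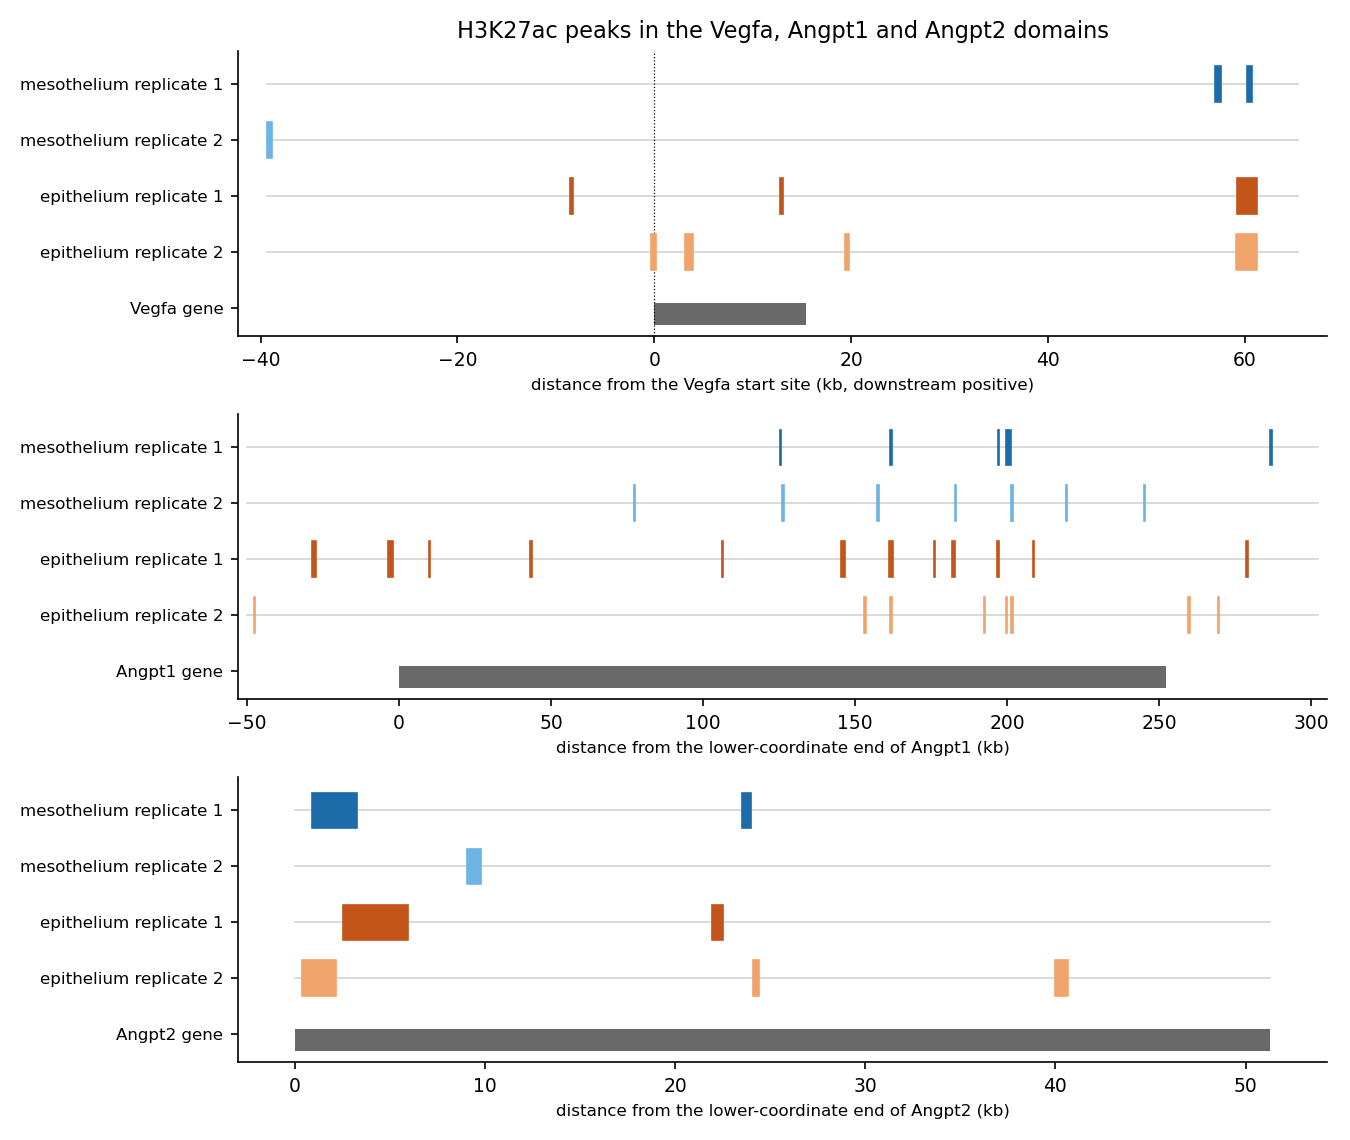
H3K27ac peaks (coloured boxes) in the domains of Vegfa, Angpt1 and Angpt2, with 1 row for each mesothelium and epithelium library and the gene as a grey bar. The horizontal axis is the distance in kb from the start site for Vegfa and from the lower-coordinate gene end for the other 2. Few boxes line up between libraries, and the 2 wide epithelial peaks 60.2 kb downstream of the Vegfa start are an exception.

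Among the receptors, Tek and Kdr were called longer in mesothelium, and both had no peak in either epithelium library. The other 3 receptor genes had at most 1.31 kb in any library. The 2 called are also the only receptor domains tested, because Flt1, Flt4 and Tie1 had a mean below 0.5 kb. A domain with no epithelial peak could enter the test only through its mesothelial length, so the count of 2 of 2 is given as a description. Both mesothelium libraries exceeded both epithelium libraries at these 2 domains, as at 22.4% of tested domains. Peaks in mesothelium replicates 1 and 2 with none in epithelium were found for these 2 of the 10 genes, and for 2.55% of all 21887 coding-gene domains. The converse, a peak in both epithelium libraries and neither mesothelium library, was found for 0 of the 10 genes and 3.26% of all domains.

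Tek, the angiopoietin receptor TIE2 (chr4:94739086-94874976), had 3.35 and 6.12 kb under 5 and 9 peaks in mesothelium replicates 1 and 2, and was listed at 0 kb in epithelium replicates 1 and 2. The groups did not overlap, and mesothelium replicate 2 was the higher. The log2 difference in kb + 0.5 was 3.40 ± 0.75 (SE, n = 2 libraries each, limma, adjusted p = 0.0107), and 0.210% of tested domains had a larger one. Without mesothelium replicate 2 the adjusted p was 0.180. The difference kept its sign in all 18 alternatives and was called in 13 of them. With peaks of −log10 q of at least 2 alone the adjusted p was 0.304.

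The Tek domain held 11 regions, and 4 of them were present in both mesothelium libraries and in neither epithelium library. At least that many such regions were found in 0.393% of all domains, and 43 domains had more. These values take no account of domain length, which was 159 kb for Tek. The region with the strongest peaks lay within the gene, 64.1 kb downstream of the start (chr4:94802539-94804193). Its peaks were 737 and 1655 bp wide in mesothelium replicates 1 and 2, with an authors' fold enrichment of 4.91 and 5.43 and a −log10 q of 3.43 and 4.66. These ranked above 96.4% and 97.2% of peaks in their own lists. A second region within the gene lay 8.68 kb downstream of the start (chr4:94747519-94748411), with peaks of 893 and 597 bp. Another lay upstream of the gene, at -15.9 kb from the start (chr4:94722914-94723791), with peaks of 826 and 848 bp. The last (chr4:94714565-94716669) crossed the upstream edge of the domain, and its peak in mesothelium replicate 1 lay beyond that edge, on the side of the neighbouring gene Ift74, so 3 regions held peaks of both libraries inside the domain. The mesothelial libraries shared 2.13 of 7.35 kb covered in either, and the promoter window printed above had no peak in it.

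Kdr, the main signalling receptor for VEGF-A (chr5:75932827-75979072), had 2.80 and 2.81 kb under 3 and 4 peaks in mesothelium replicates 1 and 2, and was listed at 0 kb in both epithelium libraries. The mesothelial values were nearly equal, and the groups did not overlap. The log2 difference was 2.78 ± 0.79 (SE, limma, adjusted p = 0.0494). The call was marginal: without mesothelium replicate 1, mesothelium replicate 2, epithelium replicate 1 or epithelium replicate 2 the adjusted p was 0.158, 0.260, 0.145 and 0.127 in that order. The sign was kept in all 17 alternatives that gave a value, and the call in 4. Of the 6 regions, 1 was shared by the mesothelium libraries and absent from epithelium, 78.0 kb downstream of the start and beyond the gene's 3′ end (chr5:75899907-75900980), with peaks of 683 and 1007 bp. At least 1 such region was present in 10.5% of all domains, whatever their length. Around the 3′ end, a 1715 bp peak of mesothelium replicate 1 crossed the end of the gene, and a 408 bp peak of mesothelium replicate 2 lay just inside it. These did not overlap. The lengths were therefore nearer to each other than the positions, with 0.616 of 4.99 kb shared. Of the 7 mesothelial peaks, 4 lay downstream of the gene, 1 upstream, 1 across its end and 1 within it. Most of the covered length thus lay outside the gene body. With 5 kb flanks the log2 difference was 1.52 (limma, adjusted p = 0.416).

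**Figure D3:**
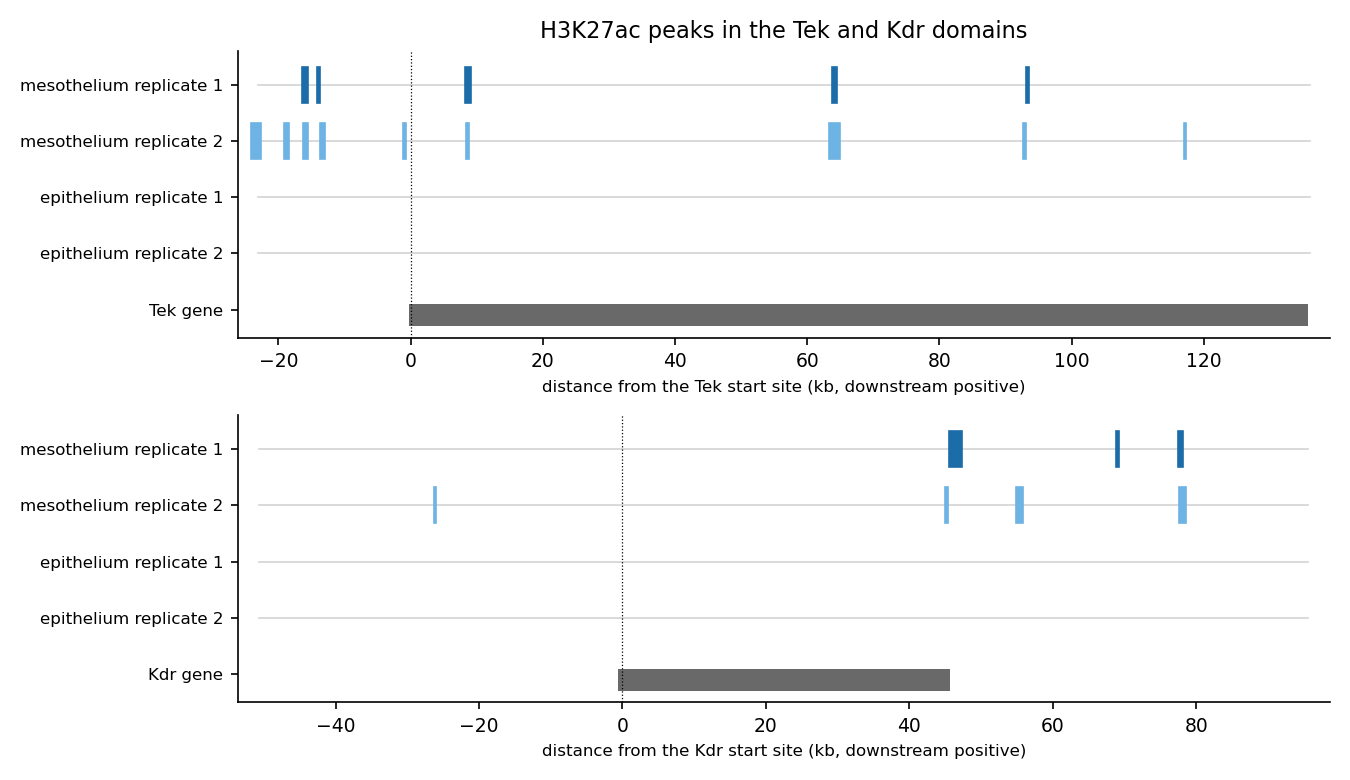
H3K27ac peaks (coloured boxes) in the domains of Tek and Kdr, with 1 row for each mesothelium and epithelium library, the gene as a grey bar and the distance from the start site in kb on the horizontal axis. The epithelium rows are empty, and boxes of both mesothelium rows line up at 8.68 and 64.1 kb and at -15.9 kb from the Tek start and at 78.0 kb from the Kdr start.

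The remaining receptors had little acetylated length. Flt1, the high-affinity VEGF-A receptor that acts largely as a decoy (chr5:147561604-147726438), had 0.379 and 0 kb in mesothelium, against 0.956 and 0.330 kb in epithelium, with the 4 peaks in 4 separate regions within the gene. Flt4, the lymphatic receptor (chr11:49609679-49652739), was listed at 0 kb except in mesothelium replicate 2, where the 614 bp peak covered its start. Tie1, the partner of TEK (chr4:118471191-118489849), was listed at 0 kb except in mesothelium replicate 1, which had a 1310 bp peak upstream of the gene, at -13.8 kb from the start. No region at these 3 genes was present in more than 1 library. At Flt1, however, 1 peak of each epithelium library lay side by side without overlap. These were chr5:147647017-147647449 in replicate 1 and chr5:147647458-147647787 in replicate 2.

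Across the 10 domains the peaks fell into 77 regions. Of these, 65 (84.4%) were present in 1 library, 5 (6.49%) in the mesothelium libraries together and not in epithelium, 7 in libraries of both groups, and none in all 4. Of all 132212 regions of the genome, 80.8% were present in 1 library, 2.60% in the mesothelium libraries alone and 3.24% in all 4, so the share in 1 library was near that of the genome. No region was present in both epithelium libraries and neither mesothelium library, a kind of region that 11.4% of all domains had. The 5 mesothelial regions all lay at the receptors Tek and Kdr, and the 7 of mixed origin all lay at the ligands Vegfa, Angpt1 and Angpt2.

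**Figure D4:**
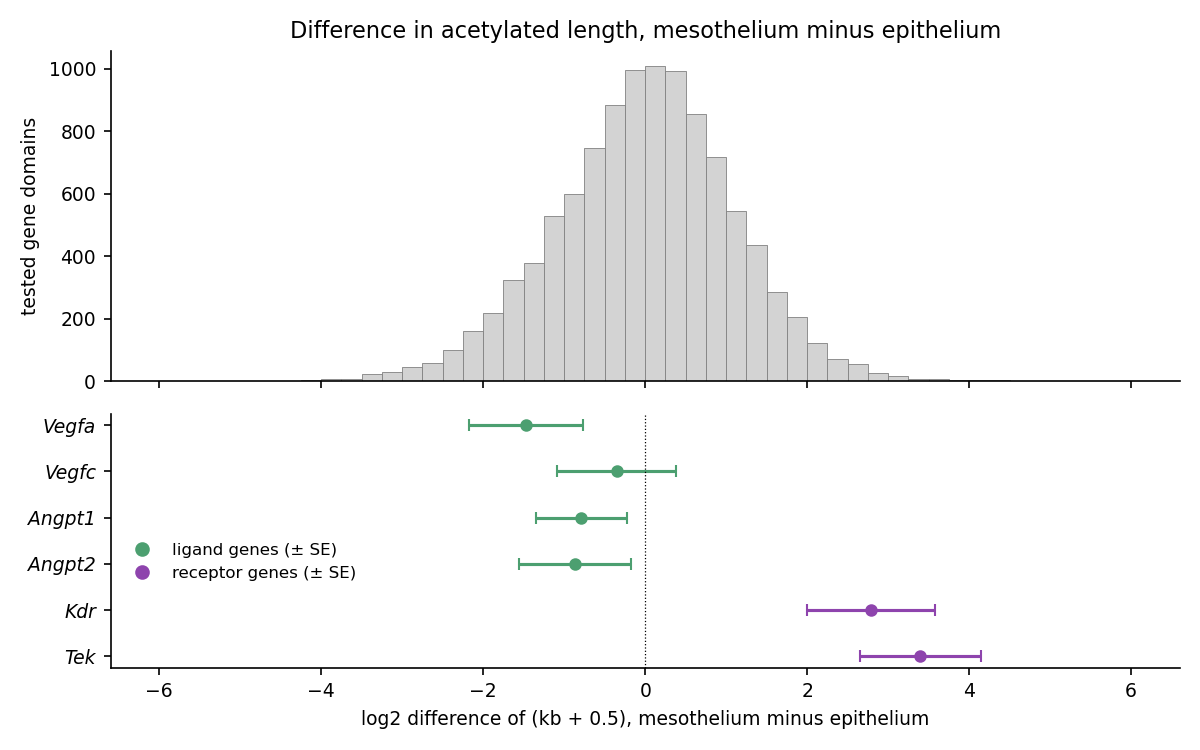
Log2 difference in acetylated length (kb + 0.5), mesothelium minus epithelium, on the horizontal axis: above, the number of tested gene domains per bin, and below, the 6 tested VEGF and angiopoietin genes with their SE. Tek at 3.40 and Kdr at 2.78 lie in the right tail of the 10481 domains, and the 4 ligand genes lie between -1.47 and -0.35.

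Within each library, the ligand domains were set against the receptor domains. The receptors made up 47.9% and 61.6% of the acetylated length of the 10 domains in mesothelium replicates 1 and 2, against 4.49% and 2.79% in epithelium replicates 1 and 2. The mean share was 54.7% ± 9.67 in mesothelium and 3.64% ± 1.20 in epithelium (SD, n = 2 each), a difference of 51.1 percentage points with no overlap between groups. With 2 libraries against 2, the smallest p that an exact permutation test allows is 1 in 3, and the share was not tested. The share rested on Tek and Kdr. Without Tek it was 34.5% and 36.5% in mesothelium, against 4.49% and 2.79% in epithelium, and without both it was 16.53% and 9.34% in mesothelium, against 4.49% and 2.79%.

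Both sums moved in the share. The 5 receptor domains summed to 7.84 and 9.55 kb in mesothelium, against 0.956 and 0.330 kb in epithelium, so the groups were far apart. The 5 ligand domains summed to 8.53 and 5.96 kb in mesothelium, against 20.3 and 11.5 kb in epithelium, where Angpt1 in replicate 1 gave the largest single value. Per length, peaks covered 1.25% and 1.52% of the receptor domains in mesothelium, against 0.152% and 0.0525% in epithelium. They covered 1.21% and 0.845% of the ligand domains in mesothelium, against 2.88% and 1.63% in epithelium. Over all coding-gene domains the covered share was 1.89% and 2.11% in mesothelium, against 2.26% and 2.12% in epithelium. The receptor domains thus lay below the level of all domains in each of the 4 libraries, and furthest below it in epithelium. A larger share of cells with the mark and a stronger mark per cell cannot be told apart in these bulk libraries.

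**Figure D5:**
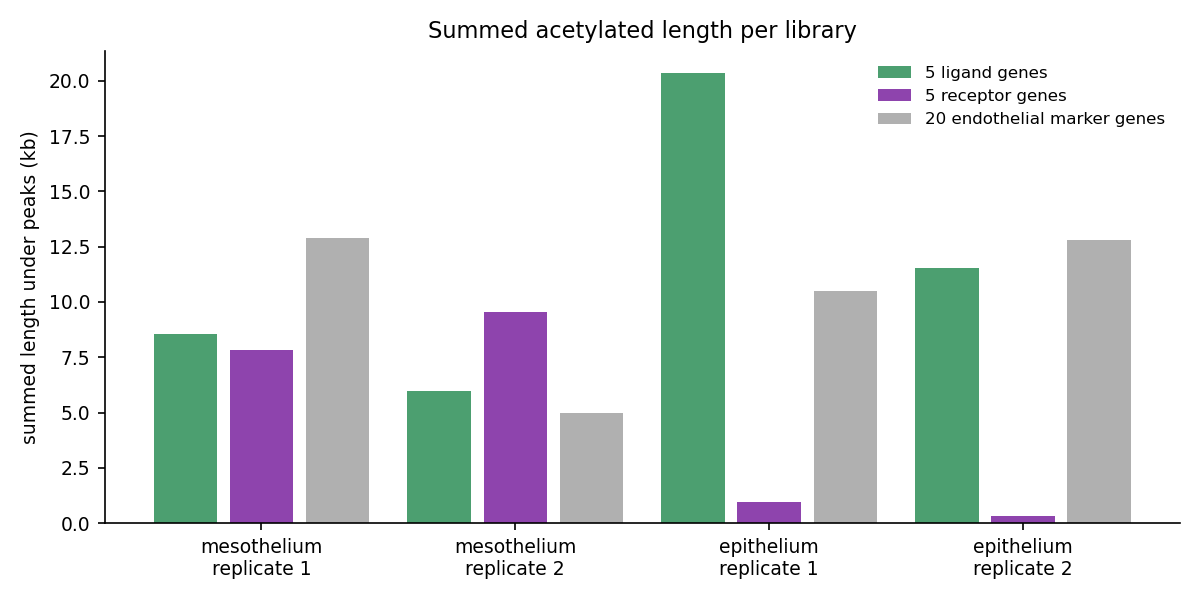
Summed length under peaks (kb, vertical axis) of the 5 ligand genes, the 5 receptor genes and the 20 endothelial marker genes in each of the 4 libraries (horizontal axis). The receptor bars stand at 7.84 and 9.55 kb in mesothelium and below 1 kb in epithelium, whereas the endothelial marker bars overlap between the groups.

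Because the receptors are best known from endothelium, a list of 20 endothelial marker genes was set beside them. A peak was present at 6 and 7 of the 20 in mesothelium replicates 1 and 2, against 10 and 9 in epithelium replicates 1 and 2. Their summed length was 12.9 and 4.99 kb in mesothelium, against 10.5 and 12.8 kb in epithelium, so the groups overlapped. Of the 7 tested, limma called 0 in either direction, also at an unadjusted p under 0.05, and the median difference was -0.35 on the log2 scale. No peak was found in either mesothelium library at 12 of the 20, and in either epithelium library at 9 of the 20, against 36.04% and 33.64% of all coding-gene domains. At 7 of the 20, among them Sox17, Sox18, Tal1, Esam and Icam2, no library had a peak, against 24.1% of all domains. Cdh5, which encodes the endothelial cadherin, Erg, an ETS factor gene, and Nos3 had no peak in mesothelium and one in each epithelium library. This pattern was found at 3 of the 20, against 3.26% of all domains, and its converse at 0 of the 20, against 2.55%. Erg was uneven, with 0.317 and 3.03 kb in epithelium replicates 1 and 2. Eng and the genes named in these counts were chosen after their values were seen. The longest marker domain was that of Pecam1, which encodes CD31, the antigen removed in both sorts, with 5.43 and 1.525 kb in mesothelium, against 2.305 and 1.92 kb in epithelium. It was followed by Prox1, the lymphatic regulator, with 1.23 and 0.408 kb in mesothelium, against 1.80 and 2.14 kb in epithelium. Fli1 had 1.04 and 0.865 kb in mesothelium, against 1.77 and 1.13 kb in epithelium, and Emcn had 2.30 and 0.777 kb, against 0 and 1.43 kb. Pecam1, Emcn and Eng, the last with 2.07 and 0 kb in mesothelium, against 0.482 and 0.546 kb in epithelium, were longest in mesothelium replicate 1. The part of endothelial cells in the receptor result was not tested.

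Other cell types were measured in the same way. The 10 immune markers summed to 1.11 and 0.366 kb in mesothelium, against 0 and 1.74 kb in epithelium, with none tested. The 12 mesenchymal markers summed to 20.4 and 23.7 kb in mesothelium, against 7.93 and 13.6 kb in epithelium, so this list was longer in both mesothelium libraries, as were Tek and Kdr. Of its 7 tested genes, limma called 0, with 2 at an unadjusted p under 0.05. The part of mesenchymal cells in the receptor result was not tested.

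The wider pathway was followed in 3 lists. Among 8 further ligands and processing factors, 4 were tested and 1, Ccbe1, was called longer in mesothelium. CCBE1 is the cofactor with which ADAMTS3 cleaves and activates VEGF-C. The Ccbe1 domain had 7.85 and 12.3 kb in mesothelium, against 1.24 and 0.625 kb in epithelium, a log2 difference of 2.95 ± 0.60 (SE, limma, adjusted p = 0.00670). Its groups were far apart, whereas Vegfc itself overlapped between groups and Adamts3 had a log2 difference of -0.36 (limma, adjusted p = 0.843). Vegfb had no peak in any library.

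Among 10 co-receptors and related guidance genes, 8 were tested and 2 were called longer in epithelium. Nrp1, a co-receptor for VEGF-A and for class 3 semaphorins, had 10.7 and 8.91 kb in mesothelium, against 31.0 and 30.2 kb in epithelium, a log2 difference of -1.54 ± 0.34 (SE, limma, adjusted p = 0.0104). It missed the threshold without epithelium replicate 1 (adjusted p = 0.0655) and without epithelium replicate 2 (adjusted p = 0.0836). Sema3e, a repulsive ligand of the endothelial receptor plexin D1, had 6.92 and 4.84 kb in mesothelium, against 30.0 and 30.5 kb in epithelium, a log2 difference of -2.23 ± 0.38 (SE, limma, adjusted p = 0.00150). Both epithelium libraries were thus close to each other and well above both mesothelium libraries at these genes, while the list as a whole had a median difference of 0.31.

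Of 8 genes that control ligand or receptor output, 7 were tested and limma called 0, with 3 at an unadjusted p under 0.05. The longest was Egln3, a prolyl hydroxylase that marks hypoxia-inducible factors for breakdown, with 5.76 and 9.53 kb in mesothelium, against 2.06 and 3.26 kb in epithelium (limma, adjusted p = 0.175). Foxo1, which activates Angpt2 in endothelial cells, had 4.11 and 7.52 kb in mesothelium, against 1.43 and 2.44 kb in epithelium (limma, adjusted p = 0.217). Klf2, a flow-responsive endothelial transcription factor gene named here after its values were seen, had 2.43 and 2.32 kb in mesothelium and was listed at 0 kb in both epithelium libraries (limma, adjusted p = 0.0757). Klf2 shared with Tek and Kdr the pattern of peaks in both mesothelium libraries alone, found for 2.55% of all coding-gene domains. Among the marker lists the pattern was found at 3 of 10 mesothelial, 1 of 12 mesenchymal and 1 of 10 immune genes. It was found at 0 of 20 endothelial and 0 of 12 epithelial markers. Epas1, of the same list as Klf2 and also named after its values were seen, had the converse, found for 3.26% of all domains. It was listed at 0 kb in both mesothelium libraries and had 0.701 and 0.767 kb in epithelium replicates 1 and 2. Epas1 was not tested.

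The coding genes whose lengths over the 4 libraries were nearest to those of the called receptors were found by Euclidean distance on log2(kb + 0.5). For Tek these were Wnt9a at a distance of 0.32, Mgat3 at 0.41 and Rcsd1 at 0.47. For Kdr they were Slc9a3r2 at 0.17, Fibin at 0.22 and Lin7c at 0.25. Each of these 6 was listed at 0 kb in both epithelium libraries, which follows from the choice of the nearest lengths.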

How the data were processed

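Broad-peak lists, deposited as 1 list per library, were used for 2 H3K27ac libraries of mesothelium and 2 of epithelium, grouped by sample title. The submitters' processing notes give the build mm10 and the tools MACS2 2.2.9.1 and Bowtie2 2.5.3, among others such as HOMER, without their roles. The threshold and control of the peak caller are not stated in them. The lowest deposited −log10 q was 1.00 to 1.03. The score column deposited with each peak was left aside. The fold enrichment of a peak is a deposited ratio. These values are the authors' and describe peaks within a list only. A list holds only intervals above the caller's minimum, so a length of 0 kb does not show the absence of the mark, and lengths depend on an unknown depth.

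Peaks off the assembled nuclear chromosomes were dropped. Gene bodies came from RefSeq GRCm38.p6, and 17.5% of coding genes overlap another, with no flank on that side. Covered length was compared with limma 3.58.1 in R 4.3.3 (two-sided, trend by mean length) after adding 0.5 kb, taking log2 and centring each library on its median over 6915 domains that had peaks in every library. Benjamini-Hochberg adjustment ran over the 10481 domains whose mean reached 0.5 kb. Differences are on the log2(kb + 0.5) scale and understate those of short domains. Regions were peaks of the 4 libraries joined by an overlap of at least 1 bp. The code for covered length and the limma fit were tested on simulated data. For limma these data had normal noise of the fitted spread, so they do not cover domains without peaks in a group. The intervals were handled in Python 3.11.15 with numpy 2.4.6 and pandas 2.3.3, and figures were drawn with matplotlib 3.10.9.

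The genes and lists were chosen with earlier results of these data known. The text names all 10 genes, and of the pathway lists the called genes or otherwise the 2 longest. Of the marker lists it names up to 4 called genes each and the 4 longest endothelial markers. The 3 nearest patterns per called gene are also named. Klf2, Epas1, Msln, Krt19, Rspo2, Pdgfrb and Acta2 were added after their values were seen. The alternatives covered the peak threshold and number, the domain, the overlap, the scaling, the pseudocount, the filter, counting peaks, a block for the replicate number and fits without 1 library.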

Additional observations from a re-analysis of the deposited data

How the results depend on the processing

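No direction of Tek, Kdr, Vegfa, Angpt1 or Angpt2 changed under the alternatives that gave a value, and no ligand was called in any. Tek and Kdr, 2 called genes, became 0 with −log10 q of at least 2 or at least 4, with 5 kb flanks and with a pseudocount of 0.1 kb. They became 1, Tek, with equal peak numbers, uncut flanks, scaling to total length, quantile normalization, no centring or a minimum mean of 1 kb. Leaving out 1 library gave 0 (without mesothelium replicate 2) to 1. Tek's adjusted p ranged from 0.00286 to 0.659 and Kdr's from 0.0153 to 0.458. The 148 domains longer in mesothelium and 265 longer in epithelium became 0 and 0 at −log10 q of at least 2 (960 at an unadjusted p under 0.05), 0 and 0 at 4 or more (23 unadjusted), 88 and 122 with scaling to total length, 93 and 124 with quantile normalization, 2 and 2 with a pseudocount of 0.1 kb, and 516 and 642 when peaks were counted. Without centring 93 were longer in mesothelium. Leaving out a library gave 107 to 162 longer in mesothelium and 80 to 458 longer in epithelium. Where an arm was left with 1 library, that library was assumed to vary like the other group. The median of all tested domains shifted from 0.03 to 0.30 and 1.11 at the stricter thresholds and to 0.11 without mesothelium replicate 1. The receptor share difference of 51.1 points became 61.9 at −log10 q of at least 2, 36.6 with 5 kb flanks, 37.7 with uncut flanks and 44.1 for numbers of peaks. At 4 or more it had no value, since the epithelium libraries then had no peak at these genes. The 5 regions shared by the mesothelium libraries became 2, 0, 2 and 8 at −log10 q of at least 2, at 4 or more, with 5 kb flanks and with uncut flanks, and 5 to 24 without 1 library, where 1 library alone defines a group. Vegfc turned to 0.15 with equal peak numbers and ranged from -1.16 to 0.38 without 1 library (0.38 without epithelium replicate 1), and Egln3 to -0.18 when peaks were counted. Ccbe1, Sema3e and Nrp1 kept their sign in 17 of 17 alternatives and were called in 14, 14 and 12. The causes of these changes were not tested. With the replicate number as a block, 203 and 339 domains were called and the same 2 genes, Tek (adjusted p = 0.00593) and Kdr (0.0385). Same-numbered libraries did not deviate together (r = 0.03 over 10481 domains), so the numbers are not taken as pairs. Depth and the caller's minimum limit what a listed 0 kb can show.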
